A study of Homo sapiens with 9 samples.

Results

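The 9 genes LAT, LCP2, ZAP70, LCK, PLCG1, PLCG2, VAV1, RASGRP1 and DOCK2 encode proteins that act directly downstream of the T-cell receptor. Their open chromatin was read from FAIRE-seq peak lists of Jurkat cells, a human leukaemic T-cell line grown here as the E6-1 clone. FAIRE-seq (formaldehyde-assisted isolation of regulatory elements) sequences DNA that is poorly cross-linked to protein, so that a peak marks a stretch of accessible chromatin. The peaks of 4 lists were joined into merged regions wherever they overlapped or touched, and a merged region was assigned to a gene if it overlapped the gene body or lay within 50 kb of its transcription start site (TSS). This gave 63 regions at the 9 genes out of 40703 regions in all, and 0 regions were shared between the genes.

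When the receptor binds antigen, the kinase LCK phosphorylates the receptor chains, and ZAP70 docks there and phosphorylates the scaffold proteins LAT and LCP2 (SLP-76). The complex that forms on these scaffolds recruits phospholipase C gamma, which produces the second messengers that release calcium and activate protein kinase C and RASGRP1. VAV1 and DOCK2 activate Rac GTPases and so link the receptor to the actin cytoskeleton. PMA and calcium ionophore, the stimuli used in this cell model, act at the level of the second messengers, downstream of LCK, ZAP70, LAT and LCP2, and PMA can act on RASGRP1 itself.

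The lists carry the labels NS DMSO (non-stimulated cells, pre-treated with the vehicle DMSO), SW DMSO (vehicle, then PMA at 24 ng/mL and ionophore at 1 µM for 4 h, washed and rested in stimulus-free medium for 1 day), NS rottlerin (15 µM rottlerin, a protein kinase C inhibitor, for 1 h and no stimulus) and SW rottlerin (rottlerin, then the same stimulation, withdrawal and rest). Each list came from 1 library, so no test between lists was possible, and no value below has a replicate error. The labels and the methods of the study disagree about these lists: the methods describe peak calling on the vehicle-treated states alone, including the stimulated and re-stimulated cells, whereas the labels tie 2 of the lists to rottlerin. Merging the 4 lists gave 40731 regions before the contigs were left out. The methods state the same total for the pool of the vehicle-treated states. The study's count after removing regions on chrM or chrUn, 40703, also equalled the count here on the autosomes, X and Y. The lists labelled rottlerin may therefore come from stimulated and re-stimulated vehicle cells. A value given under a rottlerin label may not describe rottlerin. In that case the states behind the other labels, SW DMSO among them, are not settled either. The lists are named by their labels for this reason, and no direction is attributed to rottlerin or to stimulus withdrawal. The methods also give a shorter stimulation than the labels, whose value is printed above. Samples without a peak list by label were not analysed here.

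The lists held 18977 peaks (NS DMSO), 20132 (SW DMSO), 23835 (NS rottlerin) and 30409 (SW rottlerin), and read depth cannot be taken from a peak list. Of 7 T-lineage marker genes, 6 had a peak within 1 kb of the TSS of their canonical transcript in at least 1 list, and CD3E and CD28 had one in every list. The 4 B-lineage, 3 myeloid and 2 erythroid markers had 0 such peaks. The value given for a peak is its fold enrichment over total input (column 7 of the lists), and where a list had several peaks in a region the highest was used. Over the 10841 regions with a peak in every list, the median fold enrichment was 4.44 (NS DMSO), 4.38 (SW DMSO), 4.64 (NS rottlerin) and 4.81 (SW rottlerin), so the lists lay on similar scales.

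LAT had 10 regions, LCP2 and ZAP70 9 each, PLCG2 8, LCK 7, PLCG1, VAV1 and DOCK2 6 each, and RASGRP1 2. The median over the 9 genes was 7 regions, against 3 for all 20163 protein-coding genes (quartiles 1 and 5), of which 14.4% had none. The genes differ greatly in length, and per 100 kb searched the numbers ran from 10.00 at LAT, 9.0 at ZAP70, 8.86 at LCP2 and 7.0 at LCK down to 1.57 at RASGRP1 and 1.21 at DOCK2. The median was 5.46 regions per 100 kb, against 2.12 for all protein-coding genes (quartiles 1.000 and 4.00). DOCK2, RASGRP1 and PLCG2 (3.43) lay within those quartiles, whereas LAT, ZAP70, LCP2, LCK, PLCG1 and VAV1 lay above them. The 50 other genes of receptor signalling described below also had a median of 7 regions. The counts depend on the reach and include regions at starts of neighbouring genes. With a reach of 10 kb, LAT and LCK had 3 regions each, VAV1 4, PLCG1 5 and RASGRP1 2. LCP2, ZAP70, PLCG2 and DOCK2 then had 6 each. The map of peaks by distance from the TSS shows the regions of the 9 genes at the reach of 50 kb for every list.

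**Figure D1:**
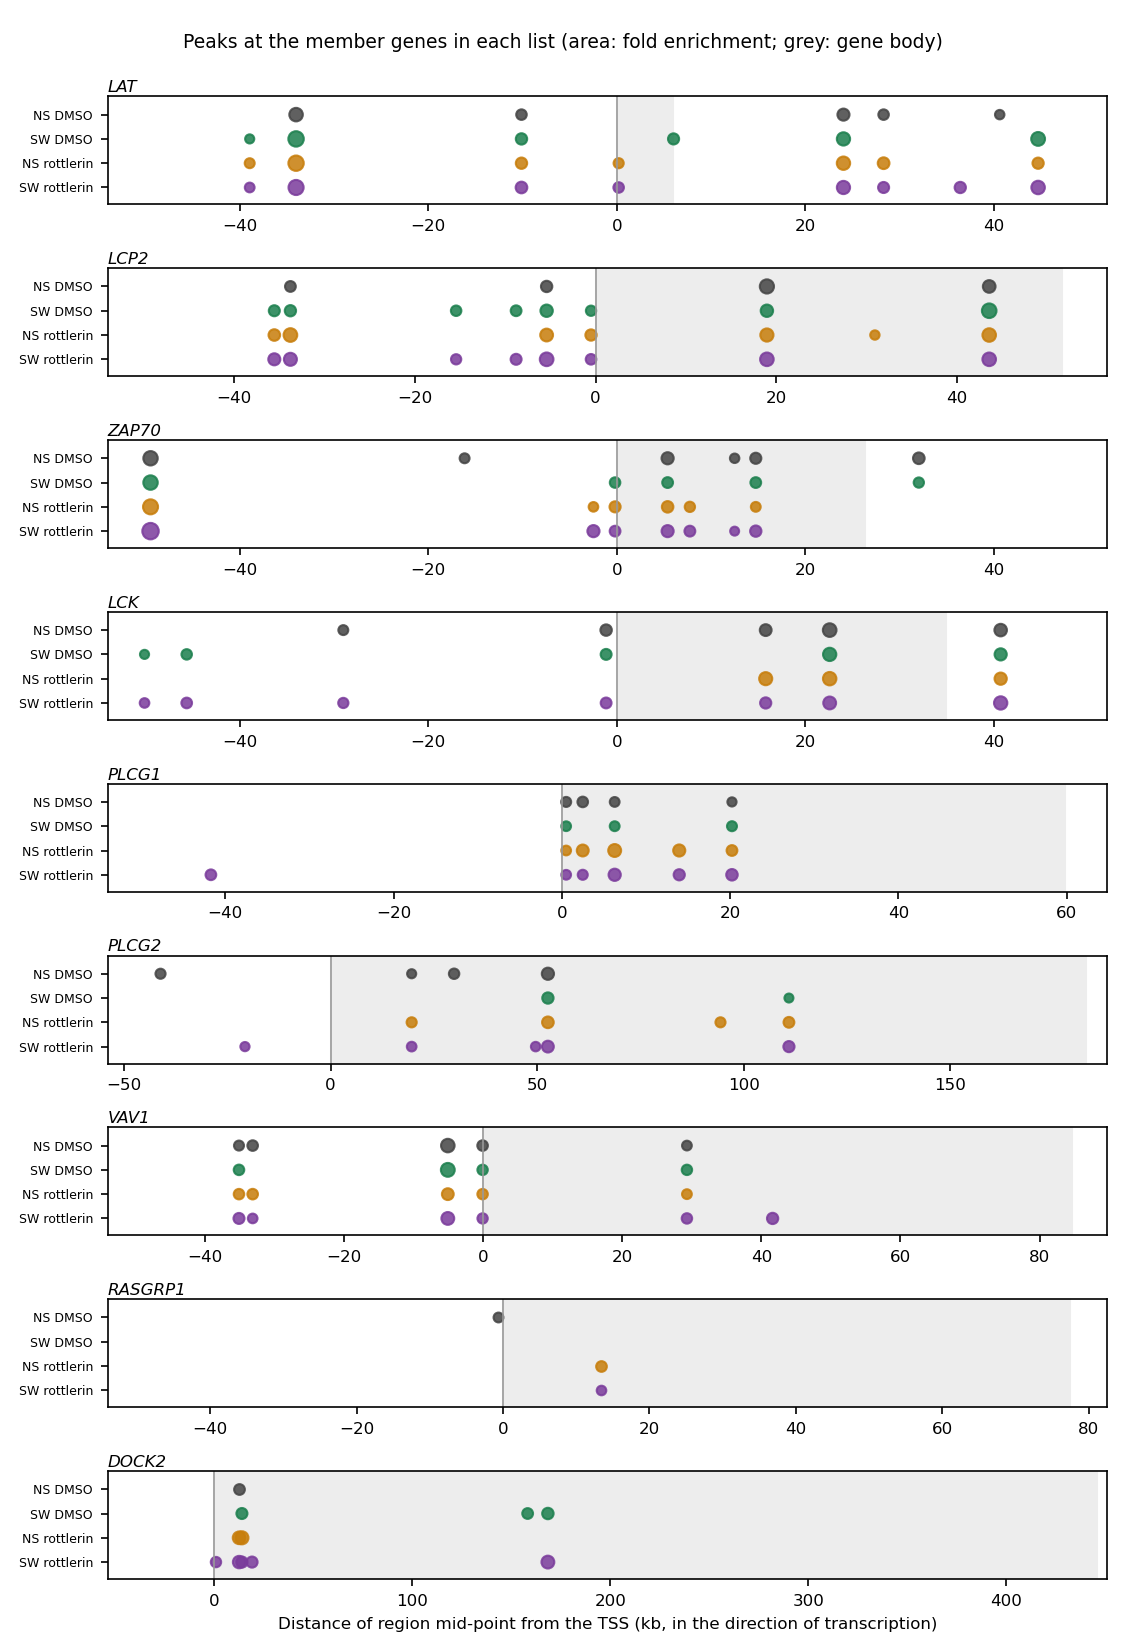
Peaks at the 9 genes, 1 panel per gene, with the distance of the merged region's mid-point from the TSS in kb on the horizontal axis (positive in the direction of transcription) and the 4 lists as rows. The area of a point is proportional to the fold enrichment over input, grey marks the gene body, and the scale of the horizontal axis differs between panels; LAT shows 10 regions within its reach and RASGRP1 2.

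LCK is the Src-family kinase that phosphorylates the receptor chains, and lies on chromosome 1 (chr1:32716845-32751766, GRCh37, plus strand). Its highest fold enrichment was at region 6 (chr1:32739073-32739791), in an intron of the canonical transcript 22.6 kb downstream of the TSS but 0.282 kb from the start of other coding LCK transcripts. The values there were 6.12 in the NS DMSO list, 5.80 in SW DMSO, 5.94 in NS rottlerin and 5.42 in SW rottlerin. This region near the downstream start was thus open in every list, with similar values. The region nearest to the upstream TSS (region 4, chr1:32715585-32715857, mid-point 1.12 kb before it) had fold enrichments of 4.31, 3.93 and 3.87 in the NS DMSO, SW DMSO and SW rottlerin lists and no NS rottlerin peak. Both LCK starts therefore had a peak near them in most lists, and the downstream one had the higher values.

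The central 300 bases of region 6 are printed because the region marks the downstream LCK start (chr1:32739282-32739581, GRCh37, plus strand). None of the 13 motifs searched matched in this window, so no base is in capitals.
LCK region 6: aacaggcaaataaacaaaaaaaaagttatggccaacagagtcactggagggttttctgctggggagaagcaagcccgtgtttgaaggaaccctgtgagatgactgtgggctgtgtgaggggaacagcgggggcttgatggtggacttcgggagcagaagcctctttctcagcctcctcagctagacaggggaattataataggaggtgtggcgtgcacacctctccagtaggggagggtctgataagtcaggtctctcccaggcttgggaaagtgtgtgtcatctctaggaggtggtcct

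Of the other LCK regions, region 7 (chr1:32757373-32757763) lay 0.116 kb from the start of HDAC1, a histone deacetylase gene, with fold enrichments of 5.17, 4.88, 4.93 and 5.85 in the lists in the order above. Here and below, a ratio is the fold enrichment of a list divided by that of NS DMSO in the same region. The largest ratio at LCK was 1.23, at region 5 in an intron 15.8 kb after the TSS (4.59 in NS DMSO and 5.64 in NS rottlerin, 4.13 in SW rottlerin and no SW DMSO peak). The smallest ratio was 0.885, at region 6 in the SW rottlerin list. Regions 1 and 2 lay close to the starts of CCDC28B and IQCC. They had peaks in the SW DMSO list (2.73 and 3.61) and the SW rottlerin list (3.04 and 3.74), and in neither list labelled NS. No LCK region was found in every list but NS DMSO, and none in the NS DMSO list alone.

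ZAP70 encodes the kinase that binds the phosphorylated receptor chains (chr2:98330039-98356325, plus strand). Region 4, at its promoter (chr2:98329630-98330099, mid-point 0.175 kb before the TSS), had fold enrichments of 3.64 in SW DMSO, 4.06 in NS rottlerin and 3.81 in SW rottlerin, and no NS DMSO peak. It was the only ZAP70 region with a peak in every list but NS DMSO. Region 3 (2.47 kb before the TSS) and region 6 (7.76 kb after it, in an intron) had peaks in the lists labelled rottlerin alone, with 3.04 and 4.86 at region 3 and 3.50 and 3.87 at region 6. The 3 regions thus had no NS DMSO peak, and all lay within 10 kb of the start.

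The ZAP70 promoter window is printed because the list labelled NS DMSO had no peak there (chr2:98329714-98330013, GRCh37, plus strand, all of it before the TSS). Capitals mark, in order, matches to NFAT letters, ETS letters, an E-box and TCF/LEF letters.
ZAP70 region 4: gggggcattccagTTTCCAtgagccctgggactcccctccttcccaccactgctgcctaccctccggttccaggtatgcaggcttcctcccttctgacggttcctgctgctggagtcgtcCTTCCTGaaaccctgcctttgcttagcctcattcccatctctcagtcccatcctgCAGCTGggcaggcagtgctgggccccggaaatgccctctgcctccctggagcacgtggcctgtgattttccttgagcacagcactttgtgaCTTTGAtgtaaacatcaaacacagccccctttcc

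The ZAP70 introns also held regions that were open in every list. Region 5 (chr2:98335079-98335798, 5.40 kb after the TSS) had fold enrichments of 4.87, 3.84, 4.36 and 4.81, and region 8 (14.7 kb after the TSS) had 4.07, 3.79, 3.18 and 4.22, in the order NS DMSO, SW DMSO, NS rottlerin and SW rottlerin. The NS DMSO list had the highest value at region 5 and the next to highest at region 8, unlike at region 4. Region 2 (16.1 kb before the TSS) was in the NS DMSO list alone, with 3.24. The highest value of all 63 regions was 8.91 (SW rottlerin) at region 1 (chr2:98280378-98280813), with 6.82, 6.86 and 7.42 in the other lists in order. That region lay 49.4 kb before the ZAP70 TSS and 0.0880 kb from a start of ACTR1B, which encodes a dynactin subunit. Its ratio of 1.31 (SW rottlerin to NS DMSO) was the largest of the ZAP70 regions, and the smallest were 0.780, at region 8 in the NS rottlerin list and at region 9, 32.0 kb downstream of the TSS, in the SW DMSO list.

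LAT is the transmembrane scaffold that ZAP70 phosphorylates (chr16:28996147-29002105, plus strand). The region over its start (region 4, chr16:28996238-28996469, mid-point 0.0200 kb from a coding LAT start) had a peak in the lists labelled rottlerin alone, with fold enrichments of 3.38 (NS) and 3.64 (SW). Region 5, at the end of the gene (6.03 kb after the TSS), was in the SW DMSO list alone, with 4.07. The LAT gene itself was therefore without a peak in the NS DMSO list, although 5 of its 10 regions were in that list.

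Beyond the 3′ end of LAT, 5 regions lay between 24.0 and 44.7 kb after the TSS. Region 6 (chr16:29019347-29021045, 1699 bp) was in every list, with 4.80, 5.80, 5.87 and 5.75, so that the NS DMSO value was the lowest. Region 10 (chr16:29040676-29041006) had 6.29 in SW DMSO, 4.17 in NS rottlerin and 6.0 in SW rottlerin and no NS DMSO peak, and held the highest value of the 7 regions of this pattern. Region 9, 40.6 kb after the TSS, had the opposite pattern, with 2.94 in the NS DMSO list and no peak elsewhere. On the other side of the gene, region 1 (38.9 kb before the TSS) was also in every list but NS DMSO, at 2.74, 3.27 and 3.13.

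The central 300 bases of LAT region 10 are printed because it was the strongest region in every list but NS DMSO (chr16:29040691-29040990, GRCh37, plus strand). Capitals mark 1 match to AP1 letters and 1 match to SP1 letters.
LAT region 10: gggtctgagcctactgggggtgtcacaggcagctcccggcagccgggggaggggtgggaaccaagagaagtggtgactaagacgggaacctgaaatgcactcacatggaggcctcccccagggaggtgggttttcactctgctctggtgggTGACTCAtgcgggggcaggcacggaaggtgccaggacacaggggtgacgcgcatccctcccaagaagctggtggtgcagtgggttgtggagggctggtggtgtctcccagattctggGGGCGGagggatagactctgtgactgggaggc

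The highest LAT value was 7.85 (SW DMSO) at region 2 (chr16:28961914-28962365), with 6.02 in NS DMSO, 7.77 in NS rottlerin and 7.52 in SW rottlerin. It lay over the start of the neighbour NFATC2IP, 34.0 kb before the LAT TSS, and its ratio of 1.30 (SW DMSO to NS DMSO) was the largest at LAT. Region 3, over a start of SPNS1, had 3.65 in NS DMSO and between 4.23 and 4.47 in the other lists. The smallest ratio at LAT was 1.10, at region 7 (NS DMSO 3.64 and SW rottlerin 4.01). The NS DMSO value was the lowest at each of the 4 LAT regions that list shared with others.

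LCP2 (SLP-76) is the cytosolic adaptor that is recruited to LAT (chr5:169673237-169724819, minus strand). Its promoter region (region 6, chr5:169724755-169725883, 1129 bp, mid-point 0.50 kb before the TSS) had fold enrichments of 3.49 in SW DMSO, 4.21 in NS rottlerin and 3.70 in SW rottlerin, and no NS DMSO peak. Region 1 (chr5:169760228-169760508, 35.5 kb before the TSS) had the same pattern, with 4.00, 4.40 and 4.78. Regions 3 and 4, 15.4 and 8.79 kb before the TSS, had peaks in the lists labelled SW alone (3.61 and 3.48 at region 3, 3.81 and 3.96 at region 4). Every region between the LCP2 start and 30 kb before it, other than region 5, was thus without an NS DMSO peak.

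The central 300 bases of LCP2 region 6 are printed as a second promoter without an NS DMSO peak (chr5:169725169-169725468, GRCh37, plus strand, before the start of the gene on the minus strand). Capitals mark, in order, matches to TCF/LEF letters, an E-box, AP1 letters and NFAT letters.
LCP2 region 6: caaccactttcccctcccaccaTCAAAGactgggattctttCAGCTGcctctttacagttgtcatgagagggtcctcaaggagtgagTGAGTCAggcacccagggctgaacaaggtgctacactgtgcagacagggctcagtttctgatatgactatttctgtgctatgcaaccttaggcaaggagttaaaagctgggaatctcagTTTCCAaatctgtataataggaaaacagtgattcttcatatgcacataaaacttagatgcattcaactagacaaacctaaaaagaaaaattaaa

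Region 5 (chr5:169730010-169730454, 5.41 kb before the TSS) was in every list, with 4.24 in NS DMSO, 5.05 in SW DMSO, 5.40 in NS rottlerin and 6.14 in SW rottlerin. Region 2 (chr5:169758187-169758986, 33.8 kb before the TSS) had 3.83, 4.20, 6.15 and 5.57 in that order, and its ratio of 1.61 (NS rottlerin to NS DMSO) was the largest at LCP2. Region 7 (chr5:169705519-169706194, in an intron 19 kb after the TSS) was highest in the NS DMSO list, at 6.62 against 5.05, 5.71 and 6.08, and its ratio of 0.763 (SW DMSO) was the smallest at LCP2. Region 9 (chr5:169681087-169681423, in an intron) had the highest LCP2 value, 7.01 in SW DMSO, against 5.28 in NS DMSO, 6.03 in NS rottlerin and 6.07 in SW rottlerin. The NS DMSO value was thus the lowest at regions 2, 5 and 9 and the highest at region 7. Region 8, 0.395 kb from the start of a shorter coding LCP2 transcript, was in the NS rottlerin list alone, at 2.88.

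PLCG1 encodes the phospholipase C gamma that acts in T cells (chr20:39765600-39825441, plus strand). The region over its start (region 2, chr20:39765491-39766732, mid-point 0.511 kb after the TSS) had nearly equal fold enrichments of 3.31, 3.12, 3.13 and 3.13 in the 4 lists. By contrast, the values at 3 of the 4 intronic regions downstream of it were highest in the lists labelled rottlerin. Region 4 (chr20:39771697-39772060, 6.28 kb after the TSS) had 3.16 in NS DMSO, 3.20 in SW DMSO, 5.49 in NS rottlerin and 4.93 in SW rottlerin. Its ratio of 1.74 (NS rottlerin to NS DMSO) was the largest of all the regions of the 9 genes, and that of SW rottlerin was 1.56.

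Region 6 (chr20:39785531-39786112, 20.2 kb after the TSS) had 2.77, 3.28, 3.81 and 4.37 in the order of the lists, with a ratio of 1.57 in SW rottlerin. Region 5 (14.0 kb after the TSS) had peaks in the lists labelled rottlerin alone, with 4.82 and 4.12. Region 3 (2.48 kb after the TSS) did not share this order, with 3.69 in NS DMSO, 4.67 in NS rottlerin, 3.32 in SW rottlerin and no SW DMSO peak, and gave the smallest PLCG1 ratio, 0.900 (SW rottlerin).

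The central 300 bases of PLCG1 region 4 are printed because it had the largest ratio to the NS DMSO list (chr20:39771728-39772027, GRCh37, plus strand). Capitals mark, in order, matches to TCF/LEF, RUNX, MYB and again RUNX letters.
PLCG1 region 4: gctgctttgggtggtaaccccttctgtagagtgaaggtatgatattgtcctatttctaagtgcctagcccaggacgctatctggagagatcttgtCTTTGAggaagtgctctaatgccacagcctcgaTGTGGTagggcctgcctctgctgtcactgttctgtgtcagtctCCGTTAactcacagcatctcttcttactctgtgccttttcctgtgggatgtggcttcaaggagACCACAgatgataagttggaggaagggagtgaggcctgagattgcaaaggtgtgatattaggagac

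PLCG2 encodes the phospholipase C gamma best known from B cells (chr16:81812884-81996290, plus strand). It had no peak within 1 kb of its TSS in any list, and the nearest region (region 3, chr16:81832284-81832747) lay 19.6 kb after the TSS and 0.444 kb from the start of a shorter coding transcript. Region 3 was weak, with 2.73 in NS DMSO, 3.37 in NS rottlerin and 3.08 in SW rottlerin, with the largest PLCG2 ratio, 1.24 (NS rottlerin). The strongest PLCG2 region was region 6 (chr16:81865374-81865636, in an intron), in every list with 4.90, 4.21, 4.48 and 4.60. Its ratio of 0.859 (SW DMSO) was the smallest. Region 8 (chr16:81923591-81924147, 111 kb after the TSS) was in every list but NS DMSO, with 2.66, 3.84 and 4.09. The other regions were in 1 list each, and of those in the NS DMSO list alone the higher was region 4 (chr16:81842679-81842899, 3.58). PLCG2 thus had 5 of its 8 regions in exactly 1 list, the most of the 9 genes, against 38.8% of all regions. With so few regions a difference was not tested.

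VAV1 encodes an exchange factor for Rac GTPases (chr19:6772719-6857377, plus strand). Its promoter region (region 4, chr19:6772525-6772755) had a peak in every list, with 3.68, 3.56, 3.60 and 3.51 from NS DMSO to SW rottlerin. As at PLCG1, the promoter values differed little between the lists. Region 5, in an intron 29.3 kb after the TSS, was also in every list, at 3.14, 3.55, 3.16 and 3.59, and region 6 (41.6 kb after the TSS) was in the SW rottlerin list alone, at 4.18. The highest VAV1 value was 6.31 (SW DMSO) at region 3 (chr19:6767150-6768129), against 6.03 in NS DMSO, 4.58 in NS rottlerin and 5.41 in SW rottlerin. Region 3 lay 0.165 kb from a start of SH2D3A, another signalling adaptor gene, and its ratio of 0.759 (NS rottlerin) was the smallest of the 63 regions. Region 1, over the start of GPR108, was the widest at 2215 bp and had the largest VAV1 ratio, 1.21 (SW rottlerin; 3.30 in NS DMSO and 3.99 in SW rottlerin). VAV1 had no region in every list but NS DMSO.

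The VAV1 window before the TSS is printed as a promoter with a peak in every list (chr19:6772525-6772718, GRCh37, plus strand). Capitals mark, in order, an SP1 match, an E-box, another SP1 match and a MYB match.
VAV1 region 4: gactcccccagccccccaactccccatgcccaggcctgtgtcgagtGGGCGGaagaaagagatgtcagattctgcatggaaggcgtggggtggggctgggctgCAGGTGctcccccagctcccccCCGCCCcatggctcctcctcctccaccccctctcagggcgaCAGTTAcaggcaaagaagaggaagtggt

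RASGRP1 encodes the diacylglycerol-dependent activator of Ras (chr15:38780304-38857776, minus strand), and with 2 regions it was the gene with the fewest. Region 1 (chr15:38858187-38858710, 0.672 kb before the TSS) was in the NS DMSO list alone, with 3.19, and did not reach within 1 kb of the start of the canonical transcript. Region 2 (chr15:38844240-38844618, in an intron 13.3 kb after the TSS) had peaks in the lists labelled rottlerin, with 3.76 (NS) and 3.02 (SW). No RASGRP1 region was shared between the NS DMSO list and another list, so no ratio could be given, and the SW DMSO list had 0 peaks there.

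DOCK2 encodes the Rac activator of lymphocytes and is the longest of the 9 genes (chr5:169064272-169510386, plus strand). Near its start, region 1 (chr5:169064950-169065130, 0.768 kb after the TSS) was in the SW rottlerin list alone, with 3.54. The 2 strongest of the early intronic regions lay close together. Region 2 (chr5:169076614-169076850) had 3.80 in NS DMSO, 5.30 in NS rottlerin and 5.09 in SW rottlerin, with ratios of 1.39 and 1.34 and no SW DMSO peak. Region 3 (chr5:169078022-169078286) had 4.00 in SW DMSO, 5.64 in NS rottlerin and 4.11 in SW rottlerin, and no NS DMSO peak. Region 6 (chr5:169232644-169232864), 168 kb after the TSS, was in the lists labelled SW alone, with 4.30 and 5.43. In the NS DMSO list DOCK2 had 1 peak over its whole length, against 3 in SW DMSO, 2 in NS rottlerin and 5 in SW rottlerin. Over all regions, 46.5%, 49.3%, 58.4% and 74.5% had a peak in these lists, in the same order. A difference was not tested.

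DOCK2 region 3 is printed whole as an intronic region without an NS DMSO peak (chr5:169078022-169078286, GRCh37, plus strand). Capitals mark a GATA match and, run together, an ETS and a MYB match.
DOCK2 region 3: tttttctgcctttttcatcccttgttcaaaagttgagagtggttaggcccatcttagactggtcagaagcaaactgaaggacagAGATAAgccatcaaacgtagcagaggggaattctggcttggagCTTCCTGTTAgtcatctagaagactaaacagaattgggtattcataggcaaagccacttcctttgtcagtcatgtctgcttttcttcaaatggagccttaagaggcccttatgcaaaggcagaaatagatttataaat

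The start sites of the 9 genes were compared with those of all protein-coding genes by a peak within 1 kb of the canonical transcript's start. PLCG1 and VAV1 had one in every list, LCP2 and ZAP70 in every list but NS DMSO, LAT in the 2 lists labelled rottlerin, and DOCK2 in the SW rottlerin list. LCK, PLCG2 and RASGRP1 had none, although LCK had one at its downstream start. This depended on the start used for LCK and RASGRP1. Within 1 kb of the gene record's start, LCK had peaks in NS DMSO (4.31), SW DMSO (3.93) and SW rottlerin (3.87). RASGRP1 had one there in NS DMSO (3.19), and PLCG2 had none by either start. By the canonical starts, 2 of 9 start sites were open in every list and 4 of 9 in 1 to 3 lists. Of 19881 protein-coding genes, 32.2% had a start-site peak in every list, 52.1% in none, and 5.46%, 5.29% and 5.01% in 1, 2 and 3 lists. All values at these canonical starts lay between 3.12 and 4.21.

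Most of the 63 regions lay away from the starts, and so did most of the span searched. That span ran from 100 kb at LAT to 496 kb at DOCK2. Positions over all regions are not given here, so the counts below are not set against them. The mid-point was within 1 kb of the TSS in 7 regions and more than 10 kb from it in 46, and 28 lay in an intron of the gene's canonical transcript. By the annotation of any gene, 33 regions (52.4%) were intronic, 10 (15.9%) were in promoters (within 1 kb before a start), 7 (11.1%) in exons, 5 upstream (1 to 10 kb before a start), 5 intergenic, 3 in 5′ untranslated regions and 0 in 3′ untranslated regions. The nearest coding start belonged to the gene itself in 48 regions and to a neighbour in 15. A region within 50 kb of a TSS therefore need not belong to that gene, and the strongest regions at LAT, ZAP70 and VAV1 were at starts of other genes. Of the 48, 23 had no NS DMSO peak and 13 a peak in every list. Of the 15, 5 had no NS DMSO peak and 7 a peak in every list. Over all regions of either kind, 53.5% had no NS DMSO peak and 26.6% a peak in every list. A difference between the 48 and the 15 was not tested.

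Presence of the 63 regions was then read against all regions, with 95% Wilson intervals that cover counting error only. The NS DMSO list had a peak in 35 of the 63 (55.6%, against 46.5% of all regions), SW DMSO in 36 (57.1%, against 49.3%), NS rottlerin in 40 (63.5%, against 58.4%) and SW rottlerin in 53 (84.1%, against 74.5%). The order of the lists was that of their lengths. When each list was reduced to its 18977 highest-scoring peaks, the shares of the remaining 55 regions were 63.6%, 61.8%, 61.8% and 65.5%. At that setting 36.4% of the 55 lacked an NS DMSO peak, against 41.5% of all 32366 regions. A peak in every list was found at 32.7%, against 29.2%.

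No NS DMSO peak was found at 28 of the 63 regions (44.4%, interval 32.8 to 56.7), against 53.5% of all regions. A peak in every list was found at 20 (31.7%, interval 21.6 to 44), against 26.6%. Both background shares lay inside the intervals of the 63 regions. The NS DMSO list alone held 5 regions (7.94%, interval 3.44 to 17.3), against 7.83%, and every list but NS DMSO held 7 (11.1%, interval 5.49 to 21.2), against 7.08%. Exactly 1 list held a peak at 16 regions (25.4%, interval 16.3 to 37.3), against 38.8%, a background share above the interval. Regions of 1 gene lie near one another and are not independent, so these intervals are too narrow. The plot of presence shares shows each class beside the other genes of the pathway.

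**Figure D2:**
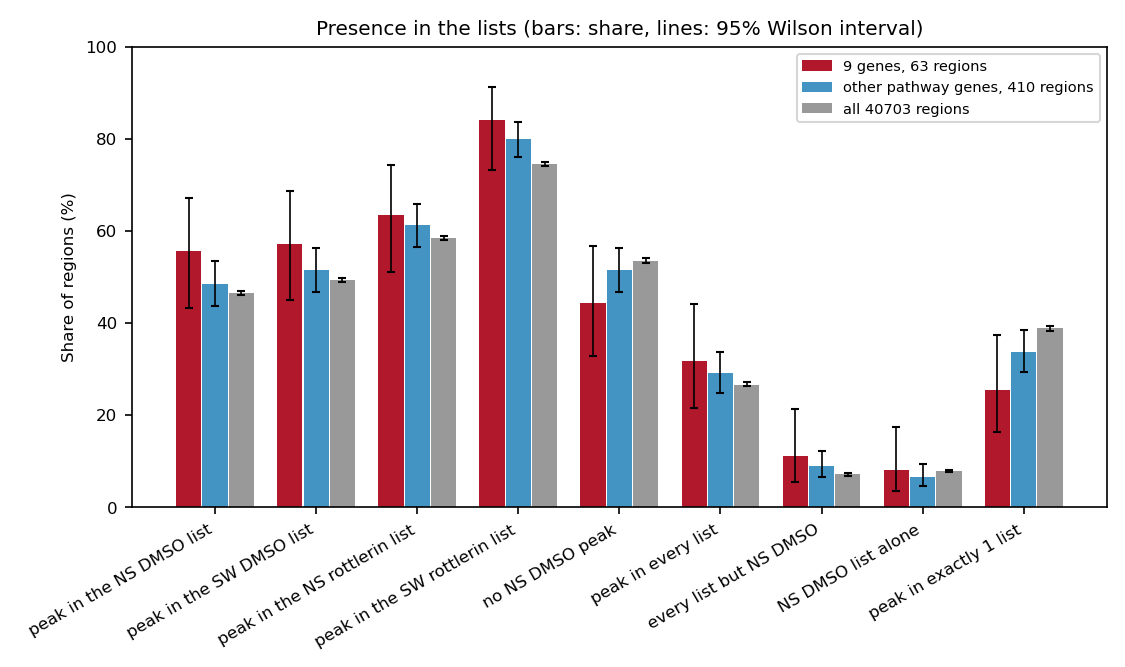
Share of merged regions (vertical axis, in percent) in each presence class, for the 63 regions of the 9 genes, the 410 regions of the other pathway genes and all 40703 regions, with 95% Wilson intervals as lines. The intervals of the 9 genes include the share over all regions except for regions with a peak in exactly 1 list (25.4% against 38.8%).

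The 7 regions in every list but NS DMSO lay at LAT (2), LCP2 (2), ZAP70, PLCG2 and DOCK2. They include the promoters of ZAP70 and LCP2, and LCK, PLCG1, VAV1 and RASGRP1 had none. The 5 regions in the NS DMSO list alone lay at PLCG2 (2), LAT, ZAP70 and RASGRP1, with values between 2.94 and 3.58. The share without an NS DMSO peak was 53.5% over all regions. At the 9 genes it ran from 5 of 6 regions at DOCK2 to 1 of 6 at VAV1. LCP2 had 5 of 9, LAT 5 of 10 and LCK 2 of 7. Each gene had few regions, and a difference between the genes was not tested.

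Regions found in few lists were weak and narrow. The median of the highest fold enrichment was 3.45 in the 16 regions of 1 list, 3.76 in the 13 of 2 lists, 4.42 in the 14 of 3 lists and 5.67 in the 20 of all 4, against 3.54, 4.06, 4.46 and 5.21 over all regions. The median widths were 208, 290, 306 and 532 bp, against 213, 284, 340 and 445 bp. A highest value over lists and a width of joined peaks rise with the number of lists, so part of this is built in. Within single lists, medians of regions in that list alone were 3.24 (NS DMSO), 3.95 (SW DMSO), 3.11 (NS rottlerin) and 3.77 (SW rottlerin). They came from 5, 2, 2 and 7 regions. The same lists had medians of 4.52, 4.23, 4.76 and 5.17 at the 20 regions in every list. The absence of a weak peak from a list is the absence of a call and does not show closed chromatin.

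At the regions that had a peak in both lists, the fold enrichment differed little from the NS DMSO list. The median ratio was 1.01 for SW DMSO (22 regions, range 0.763 to 1.33, 12 above 1), 1.12 for NS rottlerin (26 regions, 0.759 to 1.74, 17 above 1) and 1.10 for SW rottlerin (29 regions, 0.836 to 1.57, 17 above 1). Over all shared regions the medians were 0.980, 1.04 and 1.06. Each list was also divided by its own median at the regions common to all lists. The medians of the 9 genes' regions were then 1.02, 1.07 and 1.01. The 3 comparisons share the NS DMSO list, so a high or low value there moves all of them.

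A ratio of at least 1.5 was reached at 0 of 22 regions in SW DMSO (against 1.67% of all shared regions), at 2 of 26 in NS rottlerin (7.69%, against 3.19%) and at 2 of 29 in SW rottlerin (6.90%, against 4.50%). The regions were LCP2 region 2 and PLCG1 region 4 in NS rottlerin, and PLCG1 regions 4 and 6 in SW rottlerin. No region reached the reciprocal of 1.5. These counts, and the shares over all shared regions, were made without scaling between lists. At the regions common to all lists, the NS rottlerin and SW rottlerin medians were 1.05 and 1.08 times that of NS DMSO. The ratios above 1.5 lay close to that limit in SW rottlerin, and counts after scaling were not made. The plot of regions common to all lists gives the 4 values of each.

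**Figure D3:**
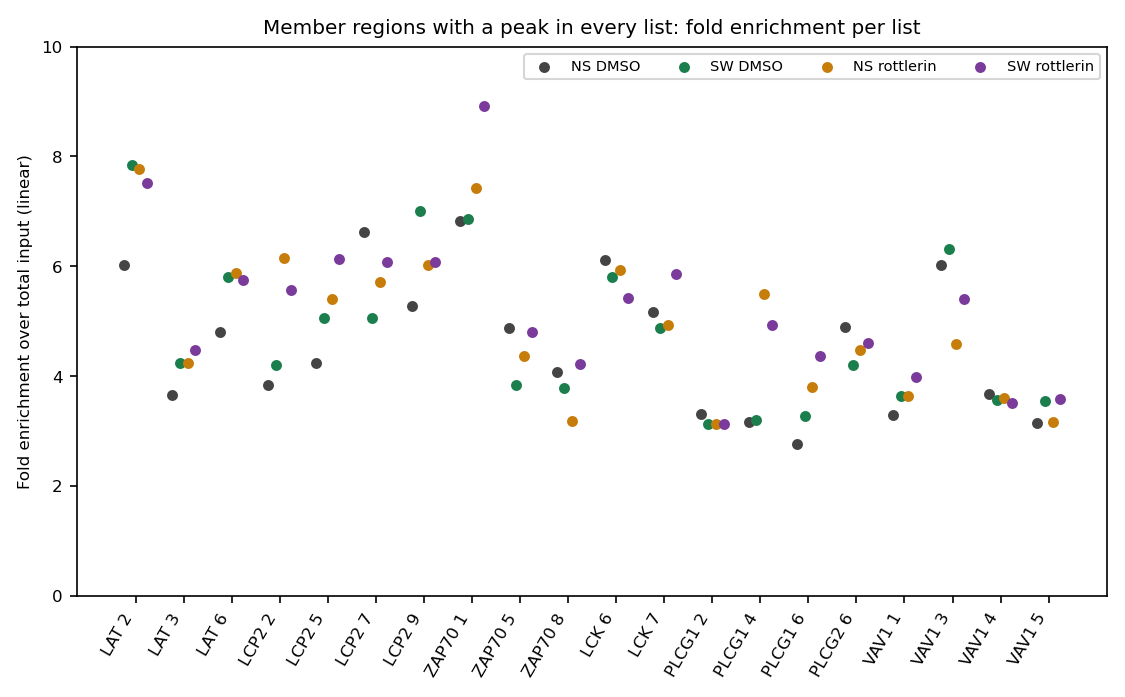
Fold enrichment over total input (vertical axis, linear) at the 20 regions with a peak in every list, 1 point per list and region, named by gene and region number along the horizontal axis. The points of the PLCG1 and VAV1 promoters (PLCG1 2 and VAV1 4) lie close together, whereas PLCG1 4 runs from 3.16 to 5.49.

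The reach of 50 kb was a choice, and several regions lay near its edge. Just inside were ZAP70 region 1, LCK region 1 (nearest edges 49.2 and 49.5 kb from the TSS) and LAT region 10 (44.5 kb). Just outside were a region 50.4 kb from the ZAP70 TSS in every list but NS DMSO (4.43, 3.85 and 5.59), a region 53.4 kb from the DOCK2 TSS in every list (7.59, 8.55, 7.53 and 8.13) and a region 55.4 kb from the LCP2 TSS in the SW rottlerin list alone (3.69). For the other genes the nearest region outside lay between 59.0 and 90.7 kb away.

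Sequence was read in the central 300 bp of each region on GRCh37. The 63 regions had a median GC content of 52.3% and 5 CpG, against 46.3% and 4 over all regions. Those with a peak in every list had 57.0% and 7 CpG, against 57.0% and 15, and those without an NS DMSO peak 48.5% and 4, against 44.3% and 3. The median CpG count of the 9 genes' regions in every list was thus the lower one, at an equal median GC content, and regions were not matched on GC.

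The letters of 13 motifs were searched on both strands: AP1 (TGANTCA), CRE (TGACGTCA), ETS (CNGGAAG), RUNX (TGTGGT), NFAT (TGGAAA), the GATA family (with the letters AGATAA), EGR (GCGNGGGCG), NFkB (GGGANTTTC), E-boxes (CAGCTG in its first form, CACCTG in the second), SP1 (GGGCGG), MYB (TAACNG) and TCF/LEF (CTTTGA). NFkB and NFAT matches can overlap. A match is a description of the letters and not a binding site. AP1, the Fos-Jun factor that follows T-cell activation, matched in 20.6% of the 63 regions against 17.9% of all regions, ETS in 27.0% against 32.1%, RUNX in 33.3% against 32.8%, NFAT in 23.8% against 27.9% and GATA in 20.6% against 21.0%. SP1 matched in 27.0% against 22.6%, MYB in 33.3% against 29.4%, TCF/LEF in 22.2% against 23.2%, CAGCTG in 15.9% against 17.1% and CACCTG in 25.4% against 21.4%. CRE (1.59% against 0.985%), EGR (3.17% against 3.89%) and NFkB (1.59% against 1.23%) were rare. For each motif the share over all regions lay inside the 95% Wilson interval of the 63 in this window. In a 500 bp window this held for all motifs but NFkB, which matched in 5 of the 63 regions (7.94%, interval 3.44 to 17.3) against 2.04% of all regions. In the whole merged regions NFkB matched in 3.17% against 1.74%.

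The AP1 matches were unevenly divided among the 63 regions. Of the 28 regions lacking an NS DMSO peak, 11 held one (39.3%, interval 23.6 to 57.6) and of the 35 with such a peak, 2 did (5.71%, interval 1.58 to 18.6). Over all regions the shares were 25.8% and 8.83%, so the same division was present there. The 11 regions were LAT regions 5 and 10, LCP2 regions 3, 4, 6 and 8, ZAP70 region 6, PLCG2 region 2, VAV1 region 6 and DOCK2 regions 4 and 5. Of these, LAT region 10 and the LCP2 promoter were in every list but NS DMSO. The 2 with an NS DMSO peak were LCP2 region 9 and ZAP70 region 8. GATA letters matched in 32.1% and 11.4% of the regions lacking and having an NS DMSO peak (24.8% and 16.6% over all regions), TCF/LEF in 35.7% and 11.4% (25.5% and 20.5%) and MYB in 46.4% and 22.9% (30.4% and 28.3%). No region without an NS DMSO peak was in every list, and regions in fewer lists were weaker and narrower by the measures above. The part of this in the motif shares was not tested.

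**Figure D4:**
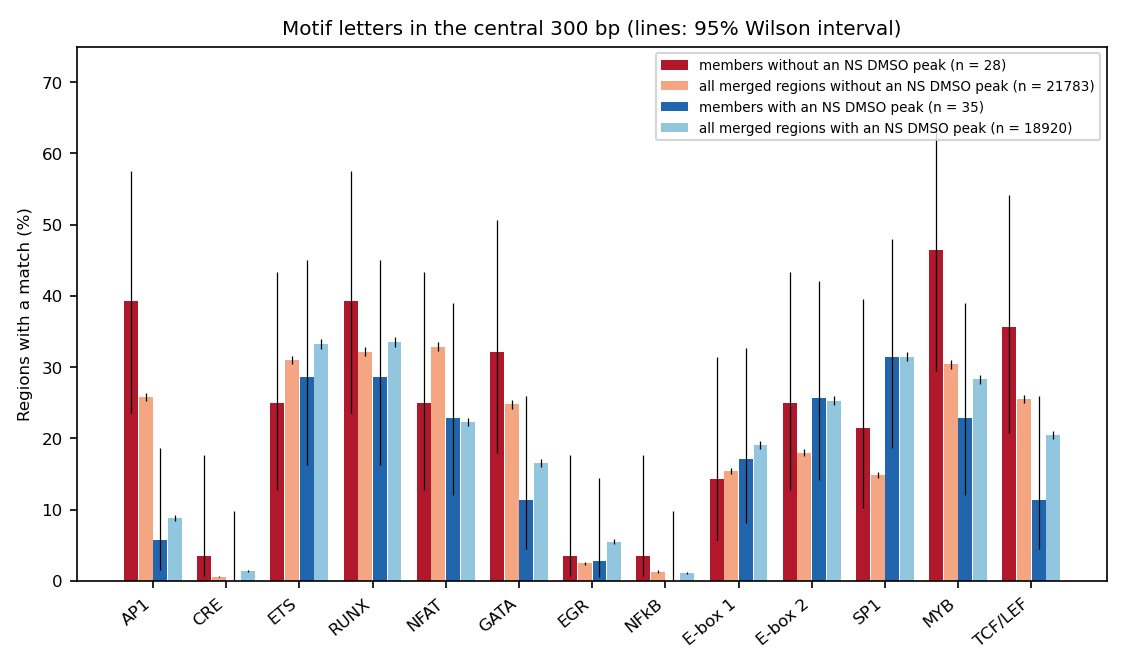
Share of regions with a motif match in the central 300 bp (vertical axis, in percent) for regions without (red tones) and with (blue tones) an NS DMSO peak, at the 9 genes and over all regions, with 95% Wilson intervals as lines. E-box 1 is CAGCTG and E-box 2 is CACCTG; AP1 letters were in 39.3% and 5.71% of the regions of the 9 genes.

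A list of 50 other genes of receptor signalling gave 410 regions by the same rule, with a median of 7 regions per gene, and 0 genes were without a region. Most regions were found at ELMO1 (25), the DOCK partner in Rac activation, and STIM1 (22), the calcium sensor of the endoplasmic reticulum. VAV3 (18), an exchange factor, and ITPR1 (17), a calcium release channel, followed. FYN and SKAP1 (15 each), a Src-family kinase and an adaptor, came next. These are long genes (596, 239, 394, 354, 213 and 297 kb in that order). The counts were not divided by the span searched. Over the 410 regions, the share without an NS DMSO peak was 51.5% and that with a peak in every list 29.0%. The share was 6.59% in the NS DMSO list alone, 9.02% in every list but NS DMSO and 33.7% in exactly 1 list. These shares lay between those of the 9 genes and of all regions, other than that of the NS DMSO list alone.

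Among the pathway genes with at least 5 regions, the highest shares without an NS DMSO peak were at CBLB (10 of 11 regions, 90.9%), a ubiquitin ligase that restrains receptor signalling, RAC2 (6 of 7, 85.7%), the Rac GTPase of blood cells, RASA2 (9 of 11, 81.8%), a GTPase-activating protein for Ras, CD6 (4 of 5, 80%), a surface receptor, and SKAP1 (11 of 15, 73.3%), against 53.5% of all regions. The lowest shares, named after their values were seen, were at FYB1 (1 of 8, 12.5%), an adaptor, DGKA (1 of 6, 16.7%), a diacylglycerol kinase, and PTPRC (2 of 12, 16.7%), the CD45 phosphatase. These are the extremes of 39 genes with few regions each. A region in every list but NS DMSO was present at 22 of the 50 genes and a region in every list at 46. Of the 9 genes, 5 had the former, and 7 (all but RASGRP1 and DOCK2) had the latter. Over all regions, 7.08% were in every list but NS DMSO and 26.6% in every list. Counts of genes with at least 1 such region rise with the number of regions per gene. They are not given over all protein-coding genes, so the counts of genes have no reference here.

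**Figure D5:**
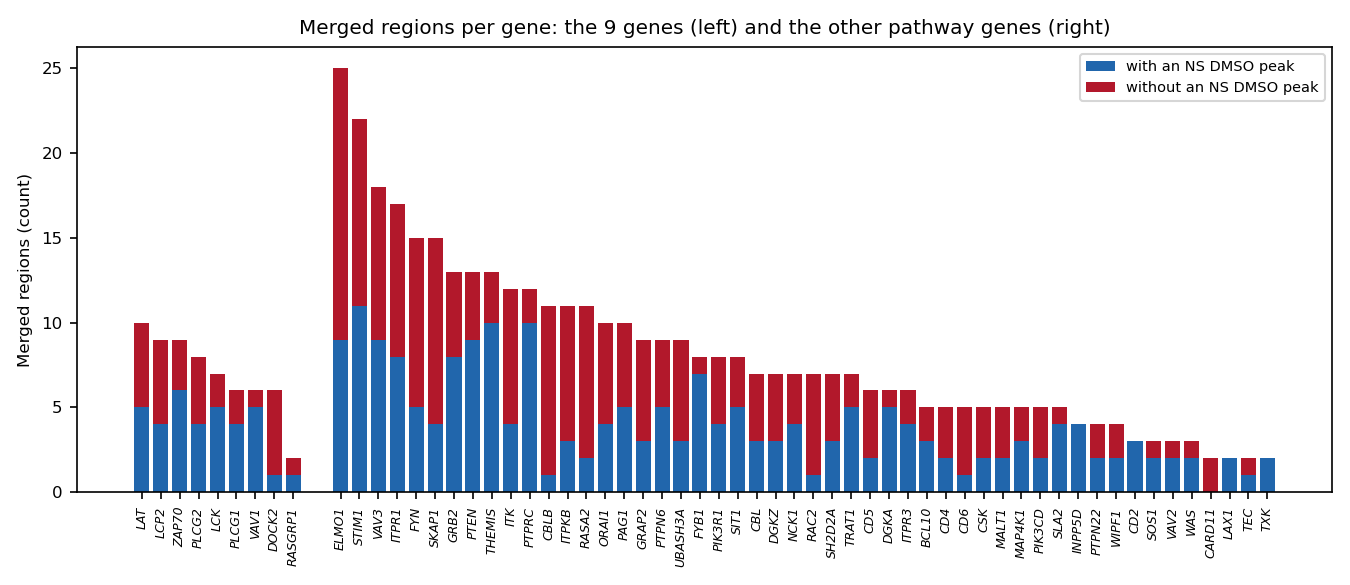
Number of merged regions per gene (vertical axis, count) for the 9 genes on the left and the 50 other pathway genes on the right, divided into regions with and without an NS DMSO peak. DOCK2 (5 of 6) and CBLB (10 of 11) have mostly regions without an NS DMSO peak, and VAV1 1 of 6, against 53.5% of all regions.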

How the data were processed

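The authors cross-linked Jurkat cells, sonicated and phenol-extracted the chromatin, sequenced the open fraction and total input, and called broad peaks; the submitters' processing notes name cutadapt, Bowtie2, Picard, MACS2, HTSeq and build hg19, with no versions. The deposited lists of 4 of the 9 samples hold 9 columns per peak: a score in column 5, which the authors' caller set to 10 times column 9 (cut to a whole number, with rare rounding exceptions), the fold enrichment (a linear ratio over input) in column 7, and the −log10 p-value and −log10 q-value in columns 8 and 9, as deposited by the authors. Broad calling joined nearby enriched stretches, so column 7 is a mean over a peak.

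Overlapping or touching peaks on the autosomes, X and Y were merged in Python 3.11.15 (pandas 2.3.3), and a list was counted as present with an overlap of 1 bp. Genes came from GENCODE 44 lifted to GRCh37, the build of the peaks, whose region ends fitted its chromosome lengths. The TSS is that of the gene record, and canonical starts were used where stated. Wilson intervals are 95% and cover counting error over regions only, not the dependence between neighbouring regions or the spread between libraries. Merging, assignment and motif search were tested on simulated data. Named for each gene were the region nearest the TSS, that with the highest column 7, those in every list but NS DMSO, the strongest in NS DMSO alone and those of extreme ratio; of the other pathway genes, those with most regions and with the highest shares lacking NS DMSO. Other regions named were chosen after their values were seen. The genes and lists were chosen with earlier results of these data known.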

Additional observations from a re-analysis of the deposited data

How the results depend on the processing

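No paired analysis was possible because there was 1 library per list. Of 274 values recomputed under alternatives for 38 results, 234 stayed within the main value's interval, spread or 1.5-fold range, 37 moved and 3 changed side of 1. The 63 regions became 41 with a reach of 10 kb, 36 with the gene body and 1 kb before the TSS and 39 when the lists kept only the 50% of peaks with higher scores. That choice left a share of 0% in NS DMSO alone and 56.4% without an NS DMSO peak, above the 52.1% of all regions, where the full lists gave a share below that of all regions. The other pathway genes then had 235 regions, 56.6% of them without an NS DMSO peak. With equal list lengths the SW rottlerin share was 65.5% and the pathway share without NS DMSO 40.1%, against 41.5% of all regions; without the SW rottlerin list the pathway share was 40.9%. Where a list had to cover 50% of a region, 57.1% of the regions lacked NS DMSO (pathway 58.8%), and NS DMSO and NS rottlerin presence were 42.9% and 49.2%. No share over all regions is given for this rule, for the lists without SW rottlerin, or for the 0% in NS DMSO alone. These values therefore have no reference here. The median ratio for SW DMSO was 0.968 with a reach of 10 kb and 0.968 with 100 kb, and for SW rottlerin 0.970 with 10 kb, so its side of 1 depended on the reach. By score the ratios were 1.34 (NS rottlerin) and 1.29 (SW rottlerin). The 500 bp window gave NFAT 49.2% (all regions 41.0%), GATA 36.5% (30.3%), CACCTG 38.1% (32.7%) and MYB 50.8% (42.5%), and the whole region ETS 47.6% (38.9%), NFAT 42.9% (32.5%) and CAGCTG 28.6% (21.3%). NFAT, GATA, ETS and CAGCTG so changed from below to above the share of all regions, each of which stayed inside the interval. An alternative added after seeing the data, AP1 letters in both windows, gave 39.3% in each for regions without an NS DMSO peak, and 14.3% (500 bp) and 17.1% (whole) for regions with one. Over all regions the shares were 31.5% (500 bp) and 28.6% (whole) without an NS DMSO peak, and 13.9% and 14.6% with one. Peak lists give no depth, so a missing peak sets no upper limit on accessibility.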

Other observations

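At the 20 regions with a peak in every list, the SW value was compared with the NS value of the same pre-treatment label. The pairs follow the labels, which may not give the true states. The median ratio was 1.03 between the lists labelled DMSO (range 0.763 to 1.33, 12 regions above 1). It was 1.06 between the lists labelled rottlerin (range 0.898 to 1.33, 14 above 1).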
